A study of Mus musculus with 12 samples.

Results

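Nuclear-encoded subunits of respiratory complex I are described here by their transcripts, in whole hearts of mice labelled as knockout or control for Rexo2. The members are 35 named subunit genes, found as 35 rows among the 54751 features of the deposited count table, and each symbol had a single row. Hearts came from C57BL/6N mice aged 52 weeks. The knockout group (3 libraries) carries a floxed Rexo2 gene, written Rexo2loxP/loxP, together with an allele written +/Ckmm, and the control group (3 libraries) carries Rexo2loxP/loxP alone. Ckmm names the muscle creatine kinase gene, whose promoter commonly drives Cre recombinase in cardiomyocytes and skeletal muscle fibres and not in the other cells of the heart. The Ckmm allele and any loss of Rexo2 always go together in these groups and cannot be told apart. No label ties a library to its own animal, so each p-value reflects only how these 6 libraries spread, part of which may be technical. The 6 libraries of RNA ends from heart mitochondria were not analysed here.

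Complex I takes electrons from NADH, passes them through iron-sulfur clusters to ubiquinone and pumps protons out of the mitochondrial matrix. It is an L-shaped assembly: the N module at the tip of the matrix arm binds NADH, the Q module below it reduces ubiquinone, and the membrane arm holds the proton pumps. Its hydrophobic core pumps are made from mitochondrial DNA (mtDNA), the other subunits from nuclear genes, and the heart, which depends on oxidative phosphorylation, holds it in large amounts. Rexo2 encodes an oligoribonuclease that degrades very short RNA, dinucleotides among them.

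None of the nuclear complex I subunits passed the test for a difference between knockout and control hearts. limma, a linear model fitted to log2(normalised count + 1) of all 18250 features with a mean of at least 10, called 0 of the 35 members at a Benjamini-Hochberg adjusted p under 0.05, where it called 0.0219% of all tested features. At an unadjusted p under 0.05 there were also 0 members, against 3.7% of all tested features (1.72% higher and 1.98% lower in knockout). On recovered read counts, edgeR gave 0 members at an adjusted p under 0.05, beside 0.0274% of features, and 0 at an unadjusted p under 0.05, beside 3.78%. DESeq2 also gave 0 members by either threshold, beside 0.456% and 1.0% of features. The smallest limma p was 0.225 and the adjusted p was 1.00 for each of the 35. The log2 fold changes, knockout over control, ran from -0.065 for Ndufab1 to 0.075 for Ndufc1, with a median of 0.022 beside 0.00056 over all tested features. The 95% intervals of the members reached from a decrease of 14.1% (-14.1%, Ndufa6) to an increase of 19.1% (Ndufb2), and for 26 of the 35 members the interval stayed within 0.2 on either side of 0 on the log2 scale.

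**Figure D1:**
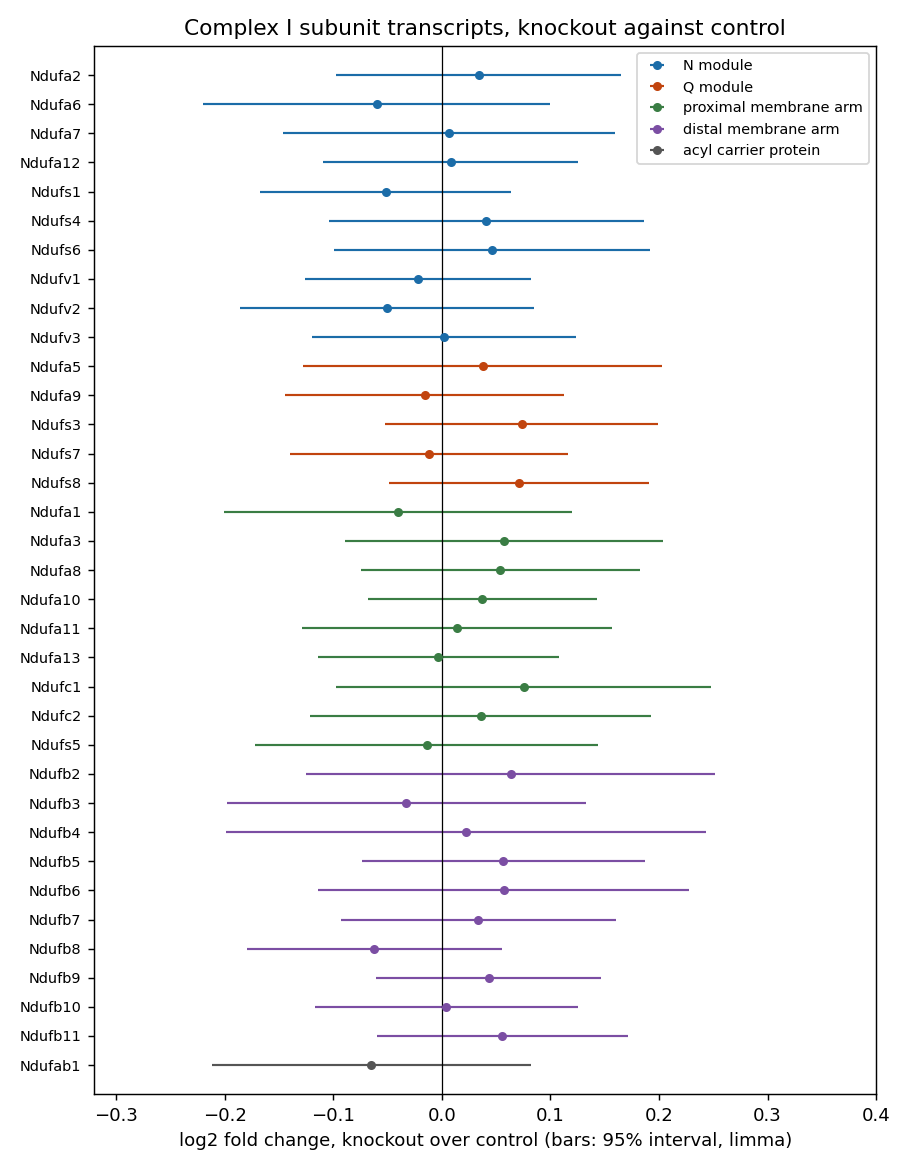
Log2 fold change of each complex I subunit transcript, knockout over control, with its 95% interval from limma (n = 3 libraries per group), coloured by place in the complex. All 35 intervals include 0, and the estimates lie between -0.065 and 0.075.

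Of the 35 members 23 lay above 0 and 12 below, that is 65.7% above 0 beside 50.2% of all tested features. That split depended on the scaling. After scaling to equal library totals 3 lay above 0 and 32 below, and after scaling to equal totals of the features outside mtDNA 28 lay above 0 and 7 below. Reads on mtDNA features, which the first of these scalings counts in the total, made up 71.5 to 71.9% of the reads in knockout and 69.4 to 70.0% in control libraries, and their part in the split was not tested. Without knockout 492 the split was 14 above and 21 below.

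Control 490 stood apart from the other control libraries, since the chi-square of read counts, divided by its degrees of freedom, was 4.51 to 5.89 for pairs of knockout libraries, and 13.3 for control 490 and 498, 13.7 for control 490 and 502 and 3.34 for control 498 and 502. Without control 490 limma called 0 members, and the median log2 fold change of the members was 0.034, with 25 above 0 and 10 below.

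The libraries held 41979163 to 50764023 recovered reads, and a member had between 244 and 6392 reads in a library, so counting error alone was a median SD of 0.044 on the log2 scale. Rexo2 itself held 274, 288 and 314 normalised counts in knockout 492, 499 and 501, against 330, 368 and 293 in control 490, 498 and 502. The groups overlapped, with a log2 fold change of -0.17 (95% interval -0.39 to 0.041, limma adjusted p = 1.00), and since the sources used here do not name the deleted exons, this count does not check the labels. Cardiomyocyte markers (6 genes, Myh6 and Actc1 among them) summed to 413271 to 444890 normalised counts in knockout and 414955 to 458968 in control libraries. Markers of skeletal muscle fibres (Myh1, Myh4, Actn3) summed to 1.07 to 5.68 in knockout and 0 to 3.05 in control libraries, adipocyte markers (3 genes) to 1.07 to 5.64 and 0.894 to 2.04, and lymphocyte markers (3 genes) to 10.4 to 23.7 and 11.6 to 34.6. In whole hearts, fewer cells of a type and less RNA per cell cannot be told apart.

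The stretches upstream of the member with the smallest spread between libraries (Ndufs3), that of smallest p (Ndufs8) and that of the largest spread (Ndufb4) are shown for the motifs of factors known to act on respiratory chain genes. They are the 250 bases before the RefSeq start on GRCm38.p6, all on the minus strand and printed 5′ to 3′ on that strand, with matches in capitals.
Ndufs3, chr2:90904722-90904971: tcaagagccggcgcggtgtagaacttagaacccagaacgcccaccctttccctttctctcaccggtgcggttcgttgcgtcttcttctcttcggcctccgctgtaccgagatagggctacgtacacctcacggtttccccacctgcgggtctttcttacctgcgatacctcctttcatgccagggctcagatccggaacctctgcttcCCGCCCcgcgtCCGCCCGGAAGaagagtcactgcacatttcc
Ndufs8, chr19:3912775-3913024: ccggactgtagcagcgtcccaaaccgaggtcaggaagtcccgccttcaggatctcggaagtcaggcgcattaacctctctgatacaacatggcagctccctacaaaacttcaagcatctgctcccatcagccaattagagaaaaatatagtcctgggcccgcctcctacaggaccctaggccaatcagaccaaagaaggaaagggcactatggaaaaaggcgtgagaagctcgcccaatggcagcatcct
Ndufb4, chr16:37654369-37654618: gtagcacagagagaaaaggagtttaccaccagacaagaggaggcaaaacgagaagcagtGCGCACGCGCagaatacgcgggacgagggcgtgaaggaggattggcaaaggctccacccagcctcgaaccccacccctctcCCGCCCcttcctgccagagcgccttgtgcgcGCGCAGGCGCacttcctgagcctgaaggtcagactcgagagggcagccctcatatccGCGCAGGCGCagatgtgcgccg
The Ndufb4 stretch held 3 matches to the NRF1 motif, the 10-letter runs in capitals, beginning 191, 79 and 22 bases before the start, and a match to the SP1 motif GGGCGG 110 bases before it. That of Ndufs3 held SP1 matches 42 and 31 bases before the start and a match to the ETS motif CCGGAAG, of the factor GABPA, 27 bases before it, which overlaps the second SP1 match. The Ndufs8 stretch held none of the motifs searched. The wider search described below, which adds 50 bases after the start, gave a CCGGAAG match for Ndufs8, whose place was not recorded.

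RefSeq windows, from 250 bases before to 50 after the start, were matched for 32 of the 35 members, all but Ndufa2, Ndufb9 and Ndufs1. Searched on both strands, the NRF1 motif occurred for 7 of these 32 members (21.9%), beside 5.19% of the 27025 genes with a window. The YY1 motif AAGATGGC occurred for 7 members (21.9%) beside 3.19% of genes, CCGGAAG for 4 (12.5%) beside 9.93%, GGGCGG for 15 (46.9%) beside 38.2%, and the TATA motif TATAAA for 4 (12.5%) beside 15.7%. These are letter matches and do not show binding. Among 9 genes that regulate mitochondrial gene expression (Ppargc1a, Ppargc1b, Nrf1, Gabpa, Gabpb1, Esrra, Tfam, Yy1, Perm1) limma called 0, with a median log2 fold change of -0.057. Those of smallest p were Ppargc1b (-0.13) and Nrf1 (-0.11).

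The N module, with 10 members here, comprised the core subunits Ndufv1, Ndufv2 and Ndufs1 and the accessory subunits Ndufv3, Ndufs4, Ndufs6, Ndufa2, Ndufa6, Ndufa7 and Ndufa12. Its median log2 fold change was 0.0046, with 6 members above 0 and 4 below, from -0.060 for Ndufa6 to 0.046 for Ndufs6. Ndufs1 (chromosome 1, 63143592 to 63176822 in GRCm38), the large core subunit that carries several iron-sulfur clusters, held 4027, 3801 and 3603 normalised counts in knockout 492, 499 and 501, against 4091, 3987 and 3766 in control 490, 498 and 502. Its groups overlapped, with the lowest value in knockout 501 and the highest in control 490. Group means were 3811 ± 212 in knockout and 3948 ± 166 in control hearts (SD, n = 3 each), a log2 fold change of -0.052 (95% interval -0.17 to 0.064, limma adjusted p = 1.00).

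Ndufv2 (chromosome 17, 66078795 to 66101559), a core subunit with an iron-sulfur cluster, held 1686, 1559 and 1481 normalised counts in the knockout libraries, in the order 492, 499 and 501, against 1726, 1555 and 1612 in control 490, 498 and 502. The highest value was again in control 490 and the lowest in knockout 501, and the log2 fold change was -0.050 (95% interval -0.19 to 0.085). Ndufa6 (chromosome 15, 82350139 to 82354291), an LYR-motif protein that docks the acyl carrier protein onto the matrix arm, held 1116, 1091 and 951 counts in knockout 492, 499 and 501, against 1170 (1169.6), 1101 and 1019 in control 490, 498 and 502. In each group the value was lower the higher the library number, and the groups overlapped, with a log2 fold change of -0.060 (95% interval -0.22 to 0.10). Ndufv1, the flavin- and NADH-binding subunit, was the most counted member, with 5256 to 5471 normalised counts in knockout and 5182 to 5711 in control libraries. Ndufs4, an accessory subunit needed for a stable N module, held 890.1 to 1007 in knockout and 891 to 981 in control libraries.

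The Q module, with 5 members here, had 3 above 0 and 2 below and a median log2 fold change of 0.038. With Ndufa6, Ndufa7 and Ndufa12, which lie near the border of the modules, counted in the Q module, its median was 0.0076 and that of the N module 0.0022. Ndufs3 (chromosome 2, 90894627 to 90904721), a core subunit of the Q module, was the single member whose groups did not overlap, 1 of 35 or 2.86%, beside 9.51% of all tested features (4.61% higher and 4.9% lower in knockout). It held 945 (944.6), 945 (944.9) and 953 normalised counts in knockout 492, 499 and 501, against 930.2, 896 and 876 in control 490, 498 and 502. All knockout libraries lay above the highest control, close to each other, and group means were 948 ± 4.92 in knockout and 901 ± 27.3 in control hearts (SD, n = 3 each). Its log2 fold change was 0.074 (95% interval -0.052 to 0.20, limma adjusted p = 1.00).

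Ndufs8 (chromosome 19, 3908863 to 3912774), a core subunit that carries iron-sulfur clusters on the way to ubiquinone, had the smallest p of all members. It held 1261, 1314 and 1340.2 normalised counts in knockout 492, 499 and 501, against 1267, 1207 and 1254 in control 490, 498 and 502. The groups overlapped through knockout 492 and control 490, and the log2 fold change was 0.071 (95% interval -0.049 to 0.19, limma adjusted p = 1.00). Ndufa5 (chromosome 6, 24518662 to 24527690), an accessory subunit of the Q module, held 1373, 1144 and 1319.9 counts in knockout 492, 499 and 501, against 1237, 1345 and 1152 in control 490, 498 and 502. Each group spanned nearly the same range, with a log2 fold change of 0.038 (95% interval -0.13 to 0.20). Ndufs7, which holds the iron-sulfur cluster that hands electrons to ubiquinone, was at -0.012 and Ndufa9, an accessory subunit at the joint of the arms, at -0.016 on the log2 scale.

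In the proximal membrane arm, next to the matrix arm, 9 members were measured, 6 above 0 and 3 below, with a median log2 fold change of 0.036. Ndufc1 (chromosome 3, 51405479 to 51408955), a small membrane subunit, held 529, 480.03 and 488 normalised counts in knockout 492, 499 and 501, against 500.4, 489 and 433 in control 490, 498 and 502. Knockout 492 was highest and control 502 lowest, and the other 4 libraries lay between 480.03 and 500.4. Its log2 fold change of 0.075 was the largest of the 35 in limma (95% interval -0.097 to 0.25, adjusted p = 1.00), and without control 502 it was 0.012. By edgeR, Ndufs3 was slightly above it, at 0.0741 beside 0.0736 for Ndufc1.

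Ndufa8 (chromosome 2, 36036324 to 36049338), a subunit held together by disulfide bonds on the intermembrane side, held 1419, 1439 and 1587 counts in knockout 492, 499 and 501, against 1458, 1442 and 1378 in control 490, 498 and 502. Knockout 501 alone exceeded the controls, and the log2 fold change was 0.054 (95% interval -0.074 to 0.18). Ndufa3 (chromosome 7, 3617347 to 3620165), another small membrane subunit, held 954, 878 and 852 counts in knockout 492, 499 and 501, against 873, 898 and 808 in control 490, 498 and 502. Here knockout 492 alone exceeded the controls, with a log2 fold change of 0.057 (95% interval -0.089 to 0.20). The X-linked Ndufa1 was at -0.041, Ndufa13, also known as GRIM-19, at -0.0030, and Ndufa10, which resembles deoxyribonucleoside kinases, at 0.037.

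The distal membrane arm, with the 10 Ndufb members, had 8 above 0 and 2 below and a median log2 fold change of 0.039. Ndufb8 (chromosome 19, 44548571 to 44555442), often used as a marker of assembled complex I on immunoblots, held 1852, 1701 and 1824 counts in knockout 492, 499 and 501, against 1935, 1834 and 1843 in control 490, 498 and 502. Only knockout 492 overlapped the controls, and the log2 fold change was -0.062 (95% interval -0.18 to 0.055, limma adjusted p = 1.00). Ndufb11 (chromosome X, 20615326 to 20617619), a membrane subunit whose human gene is also X-linked, held 1953, 1937 and 2129 counts in knockout 492, 499 and 501, against 1926, 1918 and 1940.5 in control 490, 498 and 502. Knockout 501 stood above all other libraries, knockout 499 lay below control 502, and the log2 fold change was 0.056 (95% interval -0.060 to 0.17). Ndufb5 (chromosome 3, 32737057 to 32751559) held 1568, 1457 and 1473 counts in knockout 492, 499 and 501, against 1527, 1448 and 1353 in control 490, 498 and 502. Its groups overlapped, with control 502 lowest, and the log2 fold change was 0.057 (95% interval -0.074 to 0.19).

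Ndufab1 (chromosome 7, 122086815 to 122101848), the mitochondrial acyl carrier protein that sits in each arm and also serves lipoic acid synthesis, held 1024, 951 and 882 counts in knockout 492, 499 and 501, against 1006, 948 and 1031 in control 490, 498 and 502. Knockout 501 was lowest, and the log2 fold change of -0.065 was the lowest of the members (95% interval -0.21 to 0.082, limma adjusted p = 1.00). Within libraries, the mean log2 level of the N module relative to the distal membrane arm was lower by 0.0287 in knockout than in control libraries (-0.0287), and the difference ranged over the libraries from -0.046 to 0.033 around its mean, so the groups overlapped. Relative to the Q module the N module was at -0.035, and knockout 501, at -0.094, lay apart from the other 5 libraries, which lay between 0.0036 and 0.032.

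**Figure D2:**
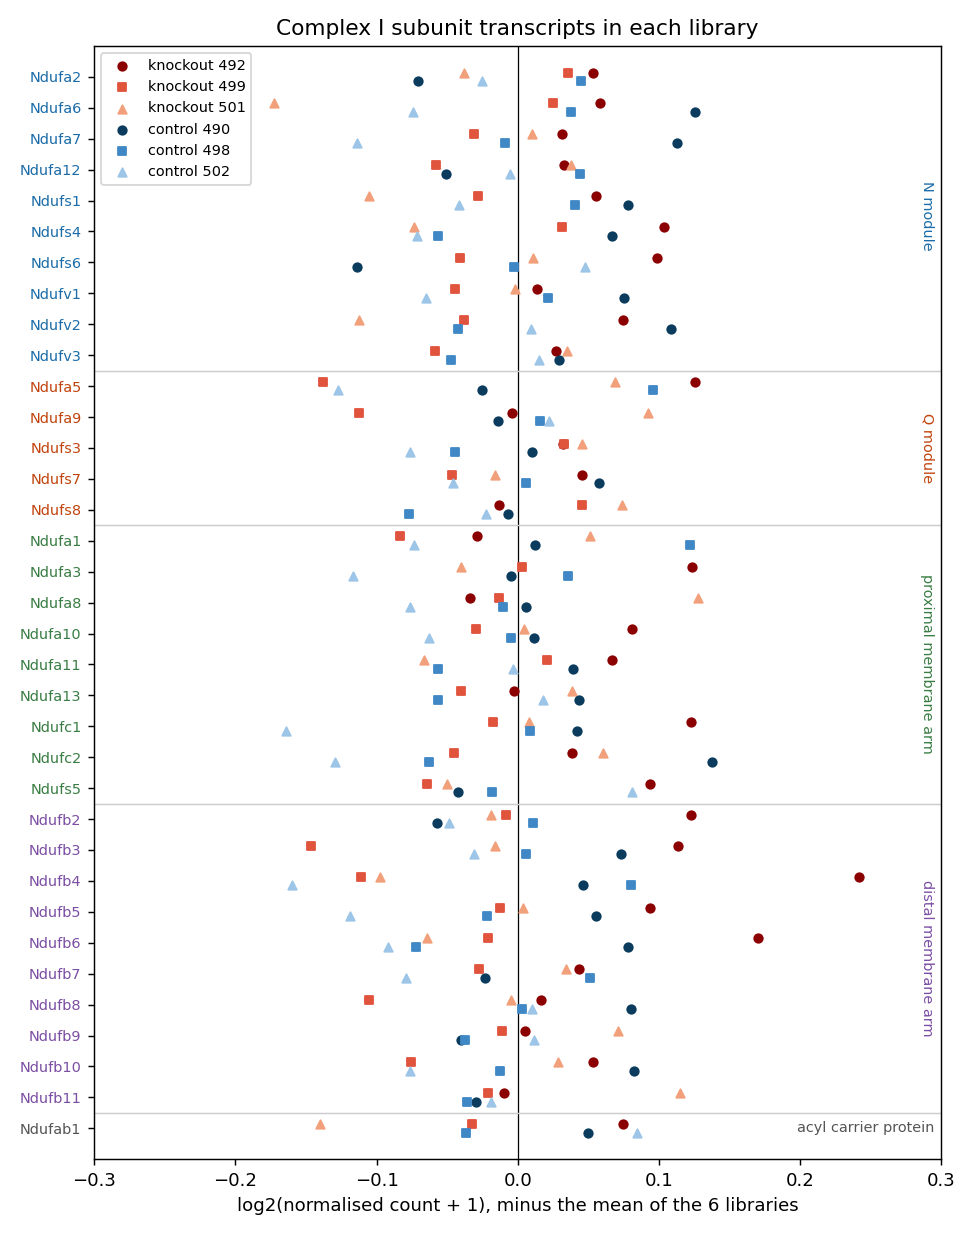
Each row is a complex I subunit transcript and each point a library, plotted as log2(normalised count + 1) minus the mean of the 6 libraries, with knockout libraries drawn slightly above control libraries. Knockout 492 and control 490 lie mostly to the right and knockout 499 and control 502 mostly to the left. The Q module departs from this, with medians of -0.0070 in control 490 and 0.069 in knockout 501.

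Within each group the subunit transcripts were high in one library and low in another. Knockout 492 was the highest library for 14 of the 35 members and the lowest for 0, and control 490 was the highest for 10. Control 502 was the lowest library for 13 members and knockout 499 for 9, with knockout 499 the highest for 0. Against the mean of the 6 libraries, the median member lay at 0.053 in knockout 492, -0.031 in knockout 499 and 0.0046 in knockout 501, against 0.039 in control 490, -0.0049 in control 498 and -0.049 in control 502, all on the log2 scale. Highest and lowest libraries thus occurred in each group. The summed counts of the 35 members were 51176 ± 1475 in knockout and 50904 ± 1315 in control hearts (SD, n = 3 each), or 0.375 to 0.392% and 0.367 to 0.376% of the reads outside mtDNA. Of all reads, mtDNA included, the members made up 0.106 to 0.11182% in knockout and 0.11184 to 0.115% in control libraries. By that share knockout libraries lay lower, with a narrow margin between knockout 492 and control 502.

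The modules can be set side by side by library, with no test of the differences between them. The distal membrane arm was at 0.074 in knockout 492 and -0.062 in control 502, and the proximal membrane arm at 0.067 and -0.074. The Q module was highest in knockout 501, at 0.069, where the N module was at -0.020. Deviations from the group mean correlated between members with a mean pairwise r of 0.264 over the 6 libraries, as a description of libraries that share depth and scaling. The same value was 0.452 for the subunits of complexes II to V, 0.331 for macrophage markers, 0.212 for cardiomyocyte markers and 0.0053 for the complex I assembly factors. Over all pairs of tested features it was 0.000016, but scaling by size factors holds that value near 0, so it is no baseline for the members. The mean r was 0.364 within the distal membrane arm, 0.225 within the N module, 0.207 within the proximal membrane arm and 0.185 within the Q module. A first principal component of these deviations took 53.5% of their variance, and 30 of the 35 members had a positive loading. With 3 libraries per group few components exist, and the sign was set so that the loadings sum to a positive value. Both numbers are thus descriptive, and no other gene set was put beside them. Scores of the component were 0.426, -0.230 and -0.196 in knockout 492, 499 and 501, and 0.271, 0.0671 and -0.338 in control 490, 498 and 502. The 5 members with a negative loading were Ndufs8, Ndufb9, Ndufb11, Ndufa8 and Ndufa9.

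Nuclear subunits of complexes II to V, 38 genes, followed a like course, with medians of 0.089, -0.043 and -0.027 in knockout 492, 499 and 501, and 0.052, 0.017 and -0.056 in control 490, 498 and 502. Cardiomyocyte markers lay at 0.059, -0.061 and -0.028 in the knockout libraries and 0.062, -0.015 and -0.019 in the control libraries, in the same order of numbers. Macrophage markers (Adgre1, Cd68, Csf1r, C1qa, Mrc1) lay at -0.012, 0.11 and 0.027 in knockout 492, 499 and 501, and -0.22, 0.068 and 0.14 in control 490, 498 and 502, and their summed level ran from 1623 to 1752 counts in knockout and 1447 to 1729 in control libraries. Endothelial markers lay at -0.067, 0.067 and -0.023 in knockout 492, 499 and 501, and -0.13, 0.036 and 0.023 in control 490, 498 and 502. Fibroblast markers lay at -0.13, 0.099 and -0.039 in the knockout libraries and -0.00060, -0.011 and 0.064 in the control libraries, in the same order of numbers. By these medians, endothelial and fibroblast markers were low in knockout 492 and high in knockout 499, where the members were high and low. Single markers differed from the median, and Kdr held 2894, 2696 and 2494 normalised counts in knockout 492, 499 and 501. The summed level of endothelial markers (5 genes) ran from 9150.3 to 9662 in knockout and 8648 to 10055 in control libraries. That of fibroblast markers (5 genes) ran from 6923 to 7668 and from 7095 to 7162. Among knockout libraries each sum was lowest in knockout 501, not in knockout 492, which held 9246 and 7126. The part of cell composition in the order of the libraries was not tested.

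**Figure D3:**
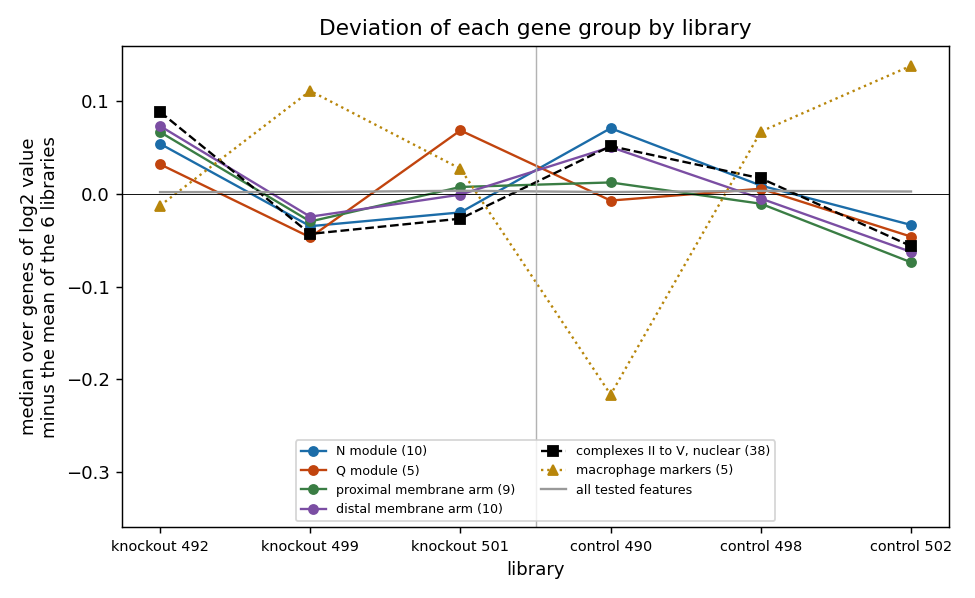
Median deviation of each gene group in each library, as log2 value minus the mean of the 6 libraries, with knockout libraries left of the grey line and control libraries right of it. The N module and membrane arm follow the complex II to V subunits, the Q module peaks in knockout 501 at 0.069, and the macrophage markers have their lowest value, -0.22, in control 490.

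The spread between libraries of a group was compared with that of other features. The SD between libraries of a group, pooled over both groups, had a median of 0.074 on the log2 scale over the members, beside 0.147 over all tested features and 0.084 over the 6799 tested features whose mean count lay within the range of the members, 279 to 5422. It was 0.080 for the subunits of complexes II to V, 0.052 for those of complex III alone, 0.065 for cardiomyocyte markers and 0.062 for the regulators of mitochondrial gene expression. The SD lay below 0.084 for 25 of the 35 members. Counting error alone was larger for those 6799 features, with a median SD of 0.058 beside 0.044 for the members. Its part in the difference between the medians was not tested. For 2 members, Ndufs3 and Ndufb2, the SD was no larger than counting error alone. The highest library exceeded the lowest by a factor of 1.07 (Ndufv3) to 1.32 (Ndufb4).

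Ndufb4 (chromosome 16, 37647602 to 37654368), a subunit of the distal membrane arm, had the largest SD, 0.169. It held 531, 416 and 419.7 normalised counts in knockout 492, 499 and 501, against 464, 475 and 402 in control 490, 498 and 502. Knockout 492 stood above all others and the remaining knockout libraries lay among the lowest, so the log2 fold change of 0.022 had a wide interval (-0.20 to 0.24). Ndufa5 was second, with an SD of 0.126, and the values above show it low in knockout 499 and control 502. Ndufs3 had the smallest SD, 0.031, and Ndufb9 the next, 0.037. Ndufb9 (chromosome 15, 58933801 to 58939516), the LYR-motif subunit that binds acyl carrier protein in the membrane arm, held 2906, 2874 and 3041 counts in knockout 492, 499 and 501, against 2816, 2822 and 2919 in control 490, 498 and 502. Its groups overlapped at control 502, and the log2 fold change was 0.043 (95% interval -0.060 to 0.15).

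**Figure D4:**
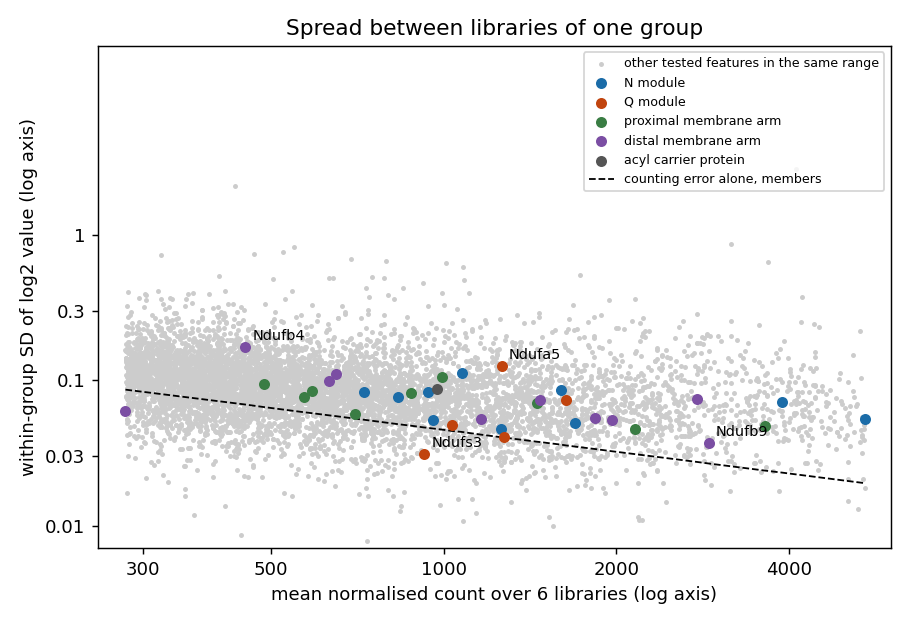
Within-group SD of the log2 value against mean normalised count, each on a log axis, for the complex I subunits (coloured) and the other tested features with means in the same range (grey); the dashed line is counting error alone for the members. Ndufb4 at 0.169 and Ndufa5 at 0.126 have the largest SD among the members, and Ndufs3 at 0.031 and Ndufb9 at 0.037 the smallest.

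For 5 members, a named copy elsewhere in the genome held a similar or larger count. Ndufs6b, a pseudogene in RefSeq that is named after the N module subunit Ndufs6, took 66.4 to 69.3% of the counts of the pair in knockout and 66.9 to 69.9% in control libraries. Ndufb4c, protein-coding in RefSeq, took 70.8 to 75.9% of its pair with Ndufb4 in knockout and 71.3 to 77.0% in control libraries, and Ndufa11b, a transcribed pseudogene, 68.6 to 71.8% and 69.6 to 70.6% of its pair with Ndufa11. For the pseudogene Ndufa12-ps the shares were 53.9 to 55.3% and 52.3 to 54.4%, and for the pseudogene Ndufab1-ps 45.4 to 49.4% and 45.5 to 46.6%. The share of Ndufb4c was highest in control 502 (77.0%), where Ndufb4 was lowest, and lowest in knockout 492 (70.8%), where Ndufb4 was highest. Since the share counts Ndufb4 in the total of the pair, it falls by arithmetic where Ndufb4 is high. Ndufb4c itself held 1287, 1123 and 1323 normalised counts in knockout 492, 499 and 501, against 1187, 1177 and 1344 in control 490, 498 and 502. The sources used here do not say how reads shared by a gene and its copy were assigned. The levels of Ndufs6, Ndufb4, Ndufa11, Ndufa12 and Ndufab1, and their spread between libraries, are therefore uncertain. The part of read assignment in the large SD of Ndufb4 was not tested.

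Summed with its copy, Ndufs6 had a log2 fold change of 0.038 (95% interval -0.065 to 0.14), Ndufb4 0.011 (-0.13 to 0.15), Ndufa11 0.018 (-0.093 to 0.13), Ndufa12 0.053 (-0.050 to 0.16) and Ndufab1 -0.032 (-0.15 to 0.085). None of the sums was called, with limma adjusted p = 1.00 for each. Among the copies, the groups did not overlap in Ndufa12-ps, which held 2027, 1955 and 2151 normalised counts in knockout 492, 499 and 501, against 1949, 1917 and 1883 in control 490, 498 and 502. Its log2 fold change was 0.092 (limma adjusted p = 1.00).

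**Figure D5:**
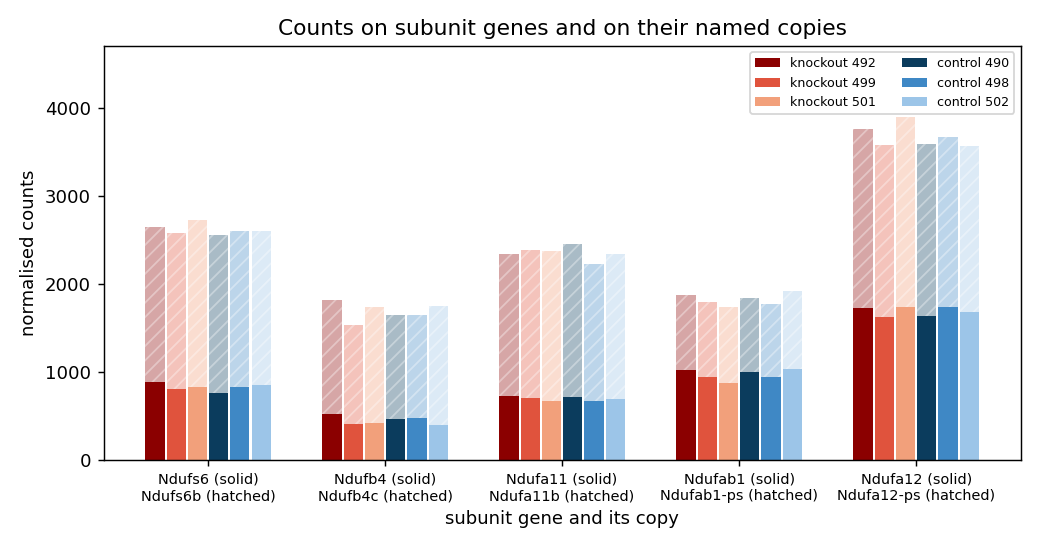
Normalised counts on 5 complex I subunit genes (solid) stacked under those on their named copies (hatched), one bar per library, knockout libraries left of control libraries in each set. The copy takes more counts than the gene for Ndufs6, Ndufb4, Ndufa11 and Ndufa12, and slightly fewer for Ndufab1.

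Other genes of the pathway showed no call either. Of 17 tested complex I assembly factors limma called 0, with 10 above 0 and 7 below and a median log2 fold change of 0.014. The groups did not overlap for 5 of the 17, where they did not for 9.51% of all tested features. Ndufaf7 and Foxred1 were higher, and Ndufaf3, Ndufaf5 and Tmem186 lower, in knockout libraries. Ndufaf3, a factor of early Q module assembly, held 244, 237 and 253 normalised counts in knockout 492, 499 and 501, against 279.7, 277 and 273 in control 490, 498 and 502. The groups did not overlap, and the log2 fold change was -0.18 (95% interval -0.37 to 0.0088, limma adjusted p = 1.00). Ndufaf7, a methyltransferase that modifies a Q module subunit, held 176, 191 and 157 counts in knockout 492, 499 and 501, against 156, 133 and 156 in control 490, 498 and 502, without overlap by a margin of under 1 count (156.8 against 156.4), and its log2 fold change was 0.23 (95% interval -0.027 to 0.49).

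The mtDNA-encoded core mRNAs, 6 features, had 0 calls, a median log2 fold change of 0.031 and 1 of the 6 at an unadjusted p under 0.05, beside 3.7% of all tested features. For 3 of the 6, mt-Nd2, mt-Nd4l_4 and mt-Nd5, all knockout libraries lay above all control libraries, as they did for 4.61% of all tested features. The feature of smallest p was mt-Nd5, which encodes the outermost pump, with 354071, 346728 and 345601 normalised counts in knockout 492, 499 and 501, against 314903, 301527 and 339914 in control 490, 498 and 502. The groups did not overlap, and the log2 fold change was 0.13 (95% interval 0.0029 to 0.26, limma adjusted p = 1.00). The joint feature mt-Nd4l_4 was at 0.12 (95% interval -0.0087 to 0.25).

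Among the 38 nuclear subunits of complexes II to V limma also called 0, with a median log2 fold change of 0.0056, 20 above 0 and 18 below, and 3 at an unadjusted p under 0.05, all lower, beside 1.98% of all tested features that were lower at that threshold. The members of smallest p were Sdha (-0.11) and Sdhb (0.040) in complex II, Uqcrfs1 (-0.10) and Uqcrc2 (0.094) in complex III, Cox8b (0.10) and Cox7c (-0.15) in complex IV, and Atp5a1 (-0.23, limma adjusted p = 0.176) and Atp5g1 (0.043) in complex V. Whether complex I differs in this from the other complexes was not tested. Among the marker lists limma called 0 genes, and those of smallest p were Myh6 (-0.028) and Tnni3 (-0.017) for cardiomyocytes, Kdr (-0.063) and Tek (0.059) for endothelium, Col3a1 (-0.12) and Dcn (0.080) for fibroblasts, Adgre1 (0.35) and C1qa (0.11) for macrophages, Acta2 (0.18) and Tagln (0.17) for smooth muscle, and Alas2 (-0.10) and Hbb-bs (0.044) for erythroid cells.

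In the authors' deposited table, a DESeq2 comparison of the same libraries, 0 of the 35 members passed an adjusted p under 0.05, beside 0.437% of the 7550 features given one. At an unadjusted p under 0.05 there were also 0 members in the authors' deposited table, beside 0.999% of features. All 35 members had an adjusted p in the authors' deposited table, and each was 1.00. The log2 fold changes there ran from -0.063 to 0.073 with a median of 0.026, and 35 of 35 had the same sign as in limma, from the same counts. The smallest unadjusted p of a member in the authors' deposited table was 0.329, for Ndufs8.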

How the data were processed

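RNA of whole hearts was depleted of cytoplasmic rRNA and reverse transcribed from random hexamers, per the labels' protocols. The authors deposited normalised counts per gene (used here as signal values, each library divided by its own size factor) and a DESeq2 table with log2 fold changes, a test score and p-values. Tools named in the submitters' processing notes, without their roles, are DESeq2 1.22.2 under R 3.5.2, featureCounts, bedtools and Bowtie2 2.3.4.1, with the builds GRCm38 and mm10. Bowtie2 by itself does not split a read across an intron, and the sources used here do not say whether reads were aligned to a genome or to transcripts, nor whether counting used strand. Symbols were found for 54686 of 54715 Ensembl identifiers, and positions and promoter sequences are from RefSeq on GRCm38.p6. The copy called Ndufa12-ps is so named in RefSeq.

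Read counts were recovered by dividing each value by that of a single read in its library, and all 156689 nonzero values (100.0%) came out whole to within 0.01. No 2 libraries of a group agreed within counting noise (chi-square per degree of freedom 3.34 to 13.7). The test used log2(deposited value + 1), a scale that understates changes of low genes, in limma 3.58.1 (trended prior, genotype as the only term, 2-sided, Benjamini-Hochberg over 18250 features). edgeR 4.0.16 and DESeq2 1.42.0 were run on the recovered reads in R 4.3.3, where edgeR called 5 features and DESeq2 33. Columns carry library numbers that match no replicate number in the labels.

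Members, lists and tests were chosen with earlier results of these data known. The modules follow textbook knowledge of the complex. Values per library are given for the 3 members of smallest limma p in each module, Ndufab1, the 2 with the largest and the 2 with the smallest SD, and the 2 genes of smallest p in other lists are named. Other members and copies were named after their values were seen. Levels per length were not computed, since transcript lengths were not at hand, so counts of different genes are not compared as levels. Alternatives covered pseudocounts, filters, scalings, tools, the grouping of modules, the summing of copies and leaving out each library. Of the assembly factors listed, 1 of 18 had no row under its symbol.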

Additional observations from a re-analysis of the deposited data

How the results depend on the processing

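The number of members called was 0 in each alternative run. Under scaling to equal library totals, the median log2 fold change of all tested features was -0.069. That scaling moved the median of the members to -0.048 and of the N module to -0.065. It moved the median of the Q module to -0.032, of the proximal membrane arm to -0.034 and of the distal membrane arm to -0.032. It also gave 2 members at an unadjusted p under 0.05, both lower, Ndufb8 and Ndufs1, with limma adjusted p of 0.576 and 0.60, where 8.21% of all tested features had such a p, and 2 without overlap between groups, Ndufb8 and Ndufv1, where 15.1% of all did not overlap. Under that scaling the sign turned for Ndufa3 (-0.013), Ndufa5 (-0.032), Ndufa8 (-0.016), Ndufb11 (-0.014), Ndufb4 (-0.048), Ndufb5 (-0.013) and Ndufb9 (-0.027). Members without overlap numbered 2 with TMM factors (9.55% of all features) and 6 with equal totals of the features outside mtDNA (9.72%). All 6 were higher in knockout, where 6.53% of all features lay without overlap in that direction. When a library was left out, members without overlap numbered from 1 to 5 (17.6 to 21.4% of all features).

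Leaving out a library moved the median of all members between -0.0069 and 0.039, of the N module between -0.020 and 0.024, of the proximal membrane arm between 0.0063 and 0.062, of the distal membrane arm between 0.0022 and 0.068, and of the Q module between -0.016 (without knockout 492; -0.0088 without control 502) and 0.066. The highest of each came without knockout 499, and the lowest without knockout 492, except for the N module, where it came without control 502. Signs turned for Ndufa5 (from -0.017 to 0.12), Ndufb4 (from -0.093 to 0.083) and Ndufa6 (from -0.11 to 0.012). No other sign turned among the 15 members described by library. Summing members with copies was chosen after the data were seen. No member has several rows, so summing rows was not run. No paired analysis was possible because the table columns carry no replicate numbers. Depth limits the least counted members, with 244 reads at the lowest.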
